A study of Homo sapiens with 44 samples.

Results

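The 9 genes followed here, POU5F1, NANOG, SOX2, PRDM14, ZFP42, DPPA4, DPPA2, SALL4 and OTX2, encode DNA-binding and chromatin-binding proteins of the human pluripotent state. They were chosen by symbol as known pluripotency factors, and GENCODE release 29 tied each symbol to 1 Ensembl identifier of the deposited tables. All 9 were found among the 60499 identifiers of the count table, and all 9 were among the 22955 genes with enough counts to be tested. RNA came from 44 wells of H1 cells, a widely used line of human embryonic stem cells, taken before and during directed differentiation towards heart muscle. Pluripotent cells (3 wells) were kept on laminin LN-521, a basement-membrane protein. The remaining groups grew on a mix of LN-521 and LN-221, and no group differs from another in genotype. Day 0 cells (3 wells) were confluent cells in Nutristem medium. Day 1 and day 3 cells (3 wells each) had received CHIR99021, which inhibits the kinase GSK3 and thereby turns on Wnt signalling, in insulin-free B27 medium. Day 5 cells (5 wells) had received IWP2, which blocks the secretion of Wnt proteins, after the day 3 samples. Day 7 and day 9 cells (5 wells each) were in the insulin-free medium alone, and cells of days 11 (5 wells), 14, 20, 30 and 90 (3 wells each) were in a medium with the CTS B-27 supplement. For day 11 the labels name 5 wells and the design text 3, and all 5 were used. The wells are numbered as biological replicates of 1 cell line. No source used here states that they came from separate cultures, so p-values measure the spread between wells.

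Pluripotent cells can form every tissue of the body, and a small circuit of transcription factors holds them in that state. POU5F1 (also called OCT4) and SOX2 bind DNA side by side at many shared sites, NANOG joins them there, and the trio drives its own genes as well as one another's. Differentiation switches this circuit off, and in the embryo parts of it stay on for a while in cells of the primitive streak, the tissue from which mesoderm and endoderm arise.

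The question the time course allows is in which order, and how fast, the 9 genes lose their RNA. POU5F1, a POU-domain factor (GRCh38 chr6:31164337-31180731, minus strand), NANOG, a homeodomain factor (chr12:7787794-7799141, plus strand), and SOX2, an HMG-box factor (chr3:181711924-181714436, plus strand), form the core. PRDM14 is a zinc-finger factor that binds near POU5F1-regulated genes, and ZFP42, or REX1 (chr4:187995771-188005050, plus strand), is a zinc-finger protein long used as a marker of undifferentiated cells. DPPA4 (chr3:109326141-109337572) and DPPA2 (chr3:109293788-109316517) are chromatin proteins with a SAP domain that act as a pair, and both genes lie on the minus strand of the same stretch of chromosome 3. SALL4 (chr20:51782331-51802520, minus strand) is a zinc-finger factor also used in early mesoderm and endoderm, and OTX2 (chr14:56799905-56810479, minus strand) is a homeodomain factor of the primed pluripotent state and of the anterior embryo.

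The bases just upstream of 4 of these genes are shown for the following reasons. NANOG and SOX2 are core members whose mean levels at day 1 lay on opposite sides of day 0, although the NANOG rise fell short of the thresholds given below. DPPA4 and DPPA2 are a pair that did not fall in step. The sequences are the 250 bases before the RefSeq start of transcription in GRCh38.p14, written in the direction of the gene: NANOG chr12:7789152-7789401 (plus strand), SOX2 chr3:181711675-181711924 (plus strand), DPPA4 chr3:109337547-109337796 (minus strand) and DPPA2 chr3:109316518-109316767 (minus strand). Capitals mark matches, on either strand, to ATGCAAA (a POU site), CATTGT (a SOX site) or CCAAT.
NANOG: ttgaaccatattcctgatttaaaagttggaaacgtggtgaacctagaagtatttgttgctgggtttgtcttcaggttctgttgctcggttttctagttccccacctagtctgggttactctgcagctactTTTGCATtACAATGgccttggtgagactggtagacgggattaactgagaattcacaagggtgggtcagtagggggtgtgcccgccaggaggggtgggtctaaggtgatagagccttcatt
SOX2: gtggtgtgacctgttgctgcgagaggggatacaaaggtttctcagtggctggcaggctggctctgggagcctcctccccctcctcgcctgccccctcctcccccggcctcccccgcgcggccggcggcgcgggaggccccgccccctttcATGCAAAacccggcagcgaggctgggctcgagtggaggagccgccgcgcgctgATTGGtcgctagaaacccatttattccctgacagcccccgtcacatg
DPPA4: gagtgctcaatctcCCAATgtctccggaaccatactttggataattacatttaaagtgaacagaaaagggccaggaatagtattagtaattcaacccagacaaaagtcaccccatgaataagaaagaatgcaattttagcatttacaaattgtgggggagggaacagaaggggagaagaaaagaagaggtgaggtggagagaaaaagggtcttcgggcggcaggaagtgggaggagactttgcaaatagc
DPPA2: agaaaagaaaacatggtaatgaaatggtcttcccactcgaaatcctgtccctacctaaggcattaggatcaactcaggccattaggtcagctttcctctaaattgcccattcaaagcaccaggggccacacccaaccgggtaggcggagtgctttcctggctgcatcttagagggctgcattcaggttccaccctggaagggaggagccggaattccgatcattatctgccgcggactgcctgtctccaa
In NANOG the POU and SOX sites stood next to each other with 1 base between them, starting at -120 relative to the start of transcription. This composite of both sites in that order and spacing was found in 3 of 35116 RefSeq promoter windows of 300 bases (0.00854%). SOX2 held a POU site at -100 and a CCAAT at -47, DPPA4 held a CCAAT at -236, and DPPA2 held none of the motifs searched. The POU site alone was in 4.46% of windows, the SOX site in 10.8% and CCAAT in 34.6%. ATCAAAG (a LEF/TCF site, 2.62% of windows) was in none of their windows. TATAAA (11.5%) spanned the RefSeq start of NANOG, TAATCC (an OTX site, 6.36%) stood in NANOG at -84, and no member held another match of these 2. Of the 9 genes, 6 had an entry in the RefSeq promoter table, in 7 windows. A match describes these letters and is not a bound site.

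Libraries held 6937136 to 33498022 estimated counts. Levels are given as CPM, counts relative to library size after scaling by the trimmed mean of M values (TMM), and 3 counts in a library corresponded to 0.0896 to 0.432 CPM before scaling. TPM, which is per transcript length, is used where genes are compared with each other. A gene was called when edgeR's adjusted p was under 0.05 and its log2 change was at least 1 in either direction. In the pluripotent and day 0 wells the 6 other pluripotent-cell markers examined summed to 3005 to 3808 CPM, whereas the 5 mesendoderm markers summed to at most 2.48 CPM. The 5 cardiomyocyte markers summed to at most 55.4 CPM until day 3 and to at least 4681 CPM in every well from day 7 on. The RNA is from bulk cells, so fewer cells that hold a transcript and less of it per cell cannot be told apart.

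**Figure D1:**
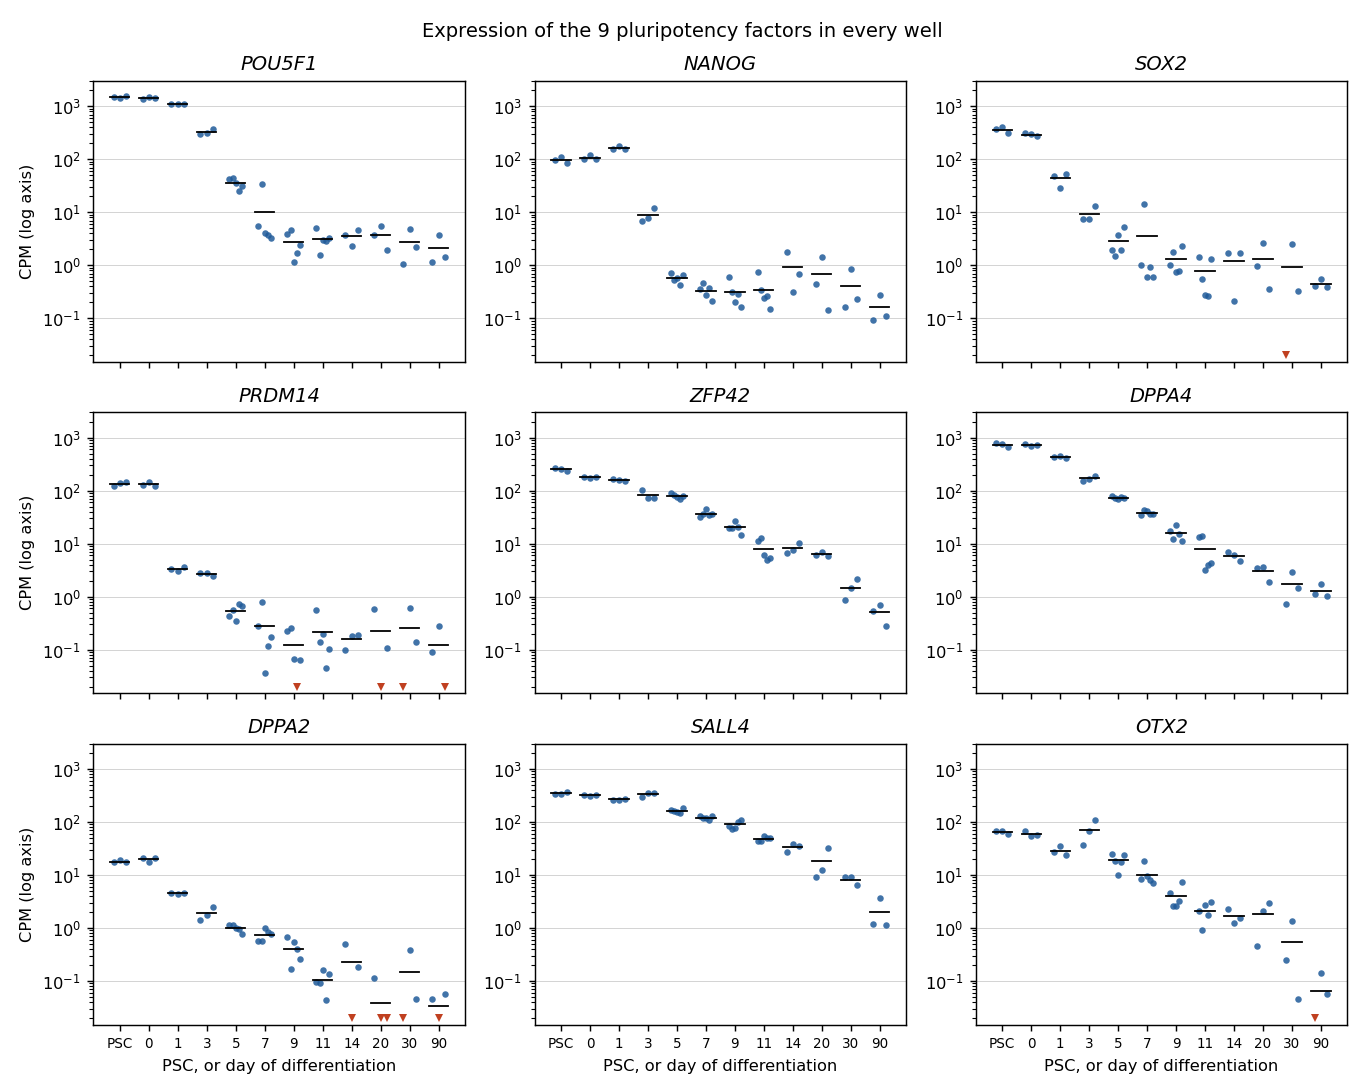
TMM-scaled CPM (log axis) of the 9 genes in each of the 44 wells, by group (PSC, pluripotent cells on LN-521, then the day). Points are wells, bars are group means and triangles at the bottom mark wells with no counts. POU5F1 at day 7 shows 1 well at 33.7 CPM above 4 wells at 3.34 to 5.57 CPM.

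Before differentiation began, POU5F1 was the most abundant of the 9 genes per transcript length. In the day 0 wells it stood at 647 ± 22.5 TPM (SD, n = 3), followed by DPPA4 at 258 ± 14.9 TPM and SOX2 at 69.8 ± 4.43 TPM. SALL4 lay at 61.2 ± 2.75 TPM and ZFP42 at 42.9 ± 1.79 TPM. NANOG (34.8 ± 3.52 TPM) and PRDM14 (34.1 ± 2.60 TPM) differed by less than the spread between wells. OTX2 (21.6 ± 2.06 TPM) and DPPA2 (9.29 ± 1.04 TPM) were lowest. Against the pluripotent wells on LN-521 alone, 0 of the 9 genes were called at day 0 by edgeR, by limma, or by DESeq2 (which gave POU5F1 no adjusted p), beside 2.91% of all genes tested in either direction. At an unadjusted p under 0.05 it was 1 gene, ZFP42 (log2 -0.51 ± 0.25 SE, adjusted p = 0.24). Its wells did not overlap, at 263.9, 257 and 239 CPM in pluripotent cells and 183, 173 and 178.5 CPM at day 0. In a fit of these 2 groups alone ZFP42 (log2 -0.48 ± 0.06, adjusted p = 0.0002) and SOX2 (log2 -0.28 ± 0.09, adjusted p = 0.024) passed the adjusted threshold, with changes short of 1.

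At day 1, after CHIR99021, PRDM14, SOX2 and DPPA2 fell, while the other 6 genes passed no call. PRDM14 measured 128, 146 and 121 CPM in the day 0 wells and 3.27, 3.08 and 3.58 CPM in the day 1 wells. All 3 day 1 wells were thus near 1 low level, at 2.34 to 2.72% of the day 0 mean, and the log2 change was -5.31 ± 0.52 (SE, adjusted p = 1.1e-09). SOX2 measured 311, 294.5 and 269.7 CPM at day 0 and 48.4, 29.2 and 53.2 CPM at day 1. The SOX2 wells of day 1 varied more among themselves but stayed far below those of day 0 (log2 -2.74 ± 0.79, adjusted p = 0.0097). DPPA2 measured 21.3, 17.8 and 20.9 CPM at day 0 and 4.48, 4.43 and 4.58 CPM at day 1, a log2 change of -2.15 ± 0.47 (adjusted p = 7.7e-04). These 3 of 9 genes stood beside 9.66% of all genes tested that were called lower at day 1. The median log2 change of the 9 genes was -0.76, against -0.03 over all genes tested. Without day 1 replicate 2 SOX2 was not called (log2 -2.48, adjusted p = 0.059).

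NANOG was the 1 gene with a higher level at day 1. Its wells measured 100.2, 121 and 99.9 CPM at day 0 and 157.5, 180.0 and 158 CPM at day 1. The ranges did not overlap, but the log2 change of 0.63 ± 0.35 (95% interval -0.07 to 1.32, adjusted p = 0.22) passed neither threshold. In a fit of days 0 and 1 alone it was 0.64 ± 0.09 (adjusted p = 2.6e-04), still short of a log2 change of 1. Within each well the ratio of NANOG to POU5F1 in TPM was 0.0506 to 0.0597 at day 0 and 0.102 to 0.109 at day 1, ranges that did not overlap.

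The remaining 5 genes had lower means at day 1, and none passed the adjusted threshold in the fit over all groups. POU5F1 was not called at log2 -0.39 ± 0.55 (adjusted p = 0.70), with wells at 1384, 1470 and 1450 CPM at day 0 and at 1092, 1090 and 1108 CPM at day 1. DPPA4 measured 754, 709 and 721 CPM at day 0 and 425, 458.5 and 405 CPM at day 1 (log2 -0.76 ± 0.35, adjusted p = 0.12). In fits of the 2 days alone POU5F1 had an adjusted p of 8.4e-05 and DPPA4 of 6.5e-06, with log2 changes of -0.38 ± 0.04 and -0.75 ± 0.06 that stayed under the threshold of 1. ZFP42 kept 85.6 to 92.8% of its day 0 mean and SALL4 82.2 to 86.0%. OTX2 kept 40.0 to 59.8% (log2 -1.05 ± 0.48, adjusted p = 0.12), and it was called in the fit of the 2 days alone (log2 -1.04 ± 0.14, adjusted p = 2.0e-04).

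**Figure D2:**
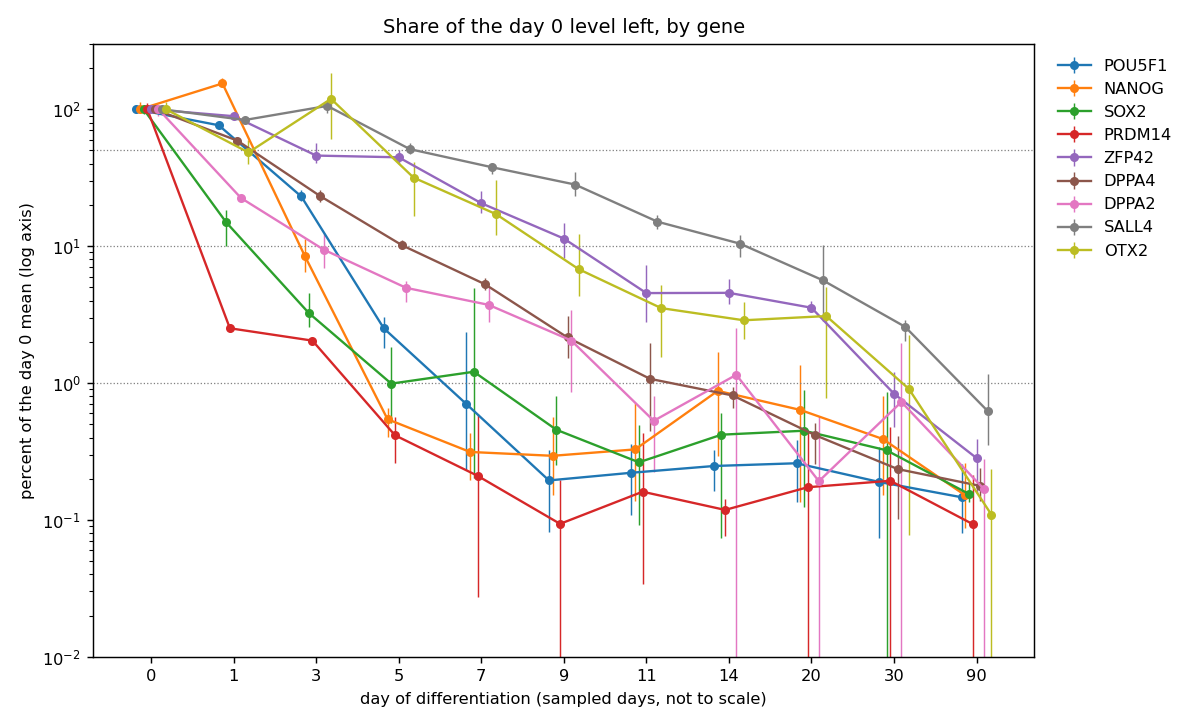
Level of each gene as a percentage of its day 0 mean (log axis) over the sampled days, which are not drawn to scale. Points are means over wells, bars run from the lowest to the highest well, bars that reach the bottom belong to wells with no counts, and dotted lines mark 50%, 10% and 1%. PRDM14 stood at 2.51% at day 1, when NANOG stood at 154.5%.

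Day 3 was the first time at which the core was low as a whole, with 7 of the 9 genes called lower than at day 0 beside 8.76% of all genes tested. NANOG measured 6.94, 7.98 and 12.1 CPM at day 3, which is 6.49 to 11.3% of its day 0 mean (log2 -3.57 ± 0.40, adjusted p = 5.6e-09). From day 1 to day 3 it fell by 4.19 ± 0.41 on the log2 scale (adjusted p = 2.8e-10), or by 2.10 ± 0.20 for each day. POU5F1 measured 305, 321 and 366.5 CPM, so that 21.3 to 25.6% of its day 0 level was left (log2 -2.12 ± 0.58, adjusted p = 0.0053). DPPA4 had a similar share left, 21.1 to 25.7%, with log2 -2.10 ± 0.36 (adjusted p = 2.2e-05). SOX2 was at 7.51, 7.63 and 13.3 CPM, DPPA2 at 1.39, 1.79 and 2.49 CPM, and PRDM14 at 2.82, 2.75 and 2.49 CPM. PRDM14 was close to its day 1 level, with log2 -0.30 ± 0.47 between days 1 and 3 (95% interval -1.22 to 0.62, adjusted p = 0.68). ZFP42 fell to 101, 71.7 and 73.0 CPM (log2 -1.12 ± 0.25 against day 0, adjusted p = 8.1e-04).

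SALL4 and OTX2 were the 2 genes not called lower at day 3. SALL4 measured 298, 360 and 356 CPM, a log2 change from day 0 of 0.08 ± 0.27 (95% interval -0.45 to 0.62, adjusted p = 0.87). OTX2 rose from 26.9, 35.6 and 23.8 CPM at day 1 to 36.2, 66.7 and 109.8 CPM at day 3 (log2 1.301 ± 0.479, adjusted p = 0.038). The 3 day 3 wells spread over a wide range. The 5 mesendoderm markers summed to 125.0, 190.0 and 234.3 CPM in the same wells, of which EOMES (59.7, 97.7 and 148.0 CPM) and MIXL1 ran in the order of OTX2, while TBXT ran in the reverse order (21.1, 20.1 and 17.1 CPM) and GSC and MESP1 were highest in replicate 2. The 5 definitive endoderm markers summed to 28.8 to 64.0 CPM at day 1 and 125 to 188 CPM at day 3, and the 5 neural ectoderm markers to 0.643 to 2.68 and 3.21 to 3.62 CPM. Their part in the OTX2 values was not tested. Between days 1 and 3, 5 of 9 genes were called lower (POU5F1, NANOG, SOX2, DPPA4 and DPPA2) beside 6.8% of all genes, and OTX2 was called higher beside 11% of all genes. This set changed with every well of days 1 and 3 left out in turn, and 2 to 5 genes were then called lower. NANOG and DPPA4 stayed called without any single well. OTX2 kept its call without day 3 replicate 1 and lost it without any other (log2 0.82 to 1.47, the lowest without day 3 replicate 3), and DPPA2 kept its call without day 3 replicate 3 alone (log2 -1.09 to -1.27 in the others). SOX2 lost its call without day 1 replicate 1 or 3 or day 3 replicate 1 or 2 (log2 -2.04 to -2.14), and POU5F1 without day 3 replicate 1 (log2 -1.69) or 2 (-1.72). Without day 3 replicate 1 ZFP42 was called as well (log2 -1.15, against -0.96 with all wells).

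At day 5, after IWP2, 8 of 9 genes were called lower than at day 0, beside 12.2% of all genes. POU5F1 measured 43.4, 43.6, 36.5, 25.7 and 30.8 CPM, 1.79 to 3.04% of its day 0 mean. NANOG lay between 0.430 and 0.703 CPM in the 5 wells, with a median of 0.577 CPM, or 0.402 to 0.658% of day 0. Between days 3 and 5 the fall for each day was log2 -1.60 ± 0.25 for POU5F1, against -0.86 ± 0.28 between days 1 and 3, and -1.98 ± 0.19 for NANOG, close to its -2.10 ± 0.20 of the step before. PRDM14 fell again to 0.343 to 0.739 CPM (log2 -2.29 ± 0.47 against day 3, adjusted p = 4.8e-04). OTX2 turned down, to 9.80 to 24.6 CPM, at log2 -1.91 ± 0.41 against day 3 (adjusted p = 8.9e-04). DPPA4 fell by 1.203 ± 0.305 (adjusted p = 0.0043) and SALL4 by 1.05 ± 0.24 (adjusted p = 0.0015) on the log2 scale. In this step 6 of 9 genes were called lower beside 4.34% of all genes. ZFP42 was not called in it, and its day 5 wells at 71.1 to 89.7 CPM overlapped those of day 3 (log2 -0.04 ± 0.22, 95% interval -0.48 to 0.40, adjusted p = 0.93). SALL4, the gene not called against day 0, kept 47.0 to 57.2% (log2 -0.97 ± 0.24, adjusted p = 0.0013). Without day 5 replicate 5 it was called (log2 -1.01), and without day 3 replicate 2 its fall from day 3 was not (log2 -0.99).

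**Figure D3:**
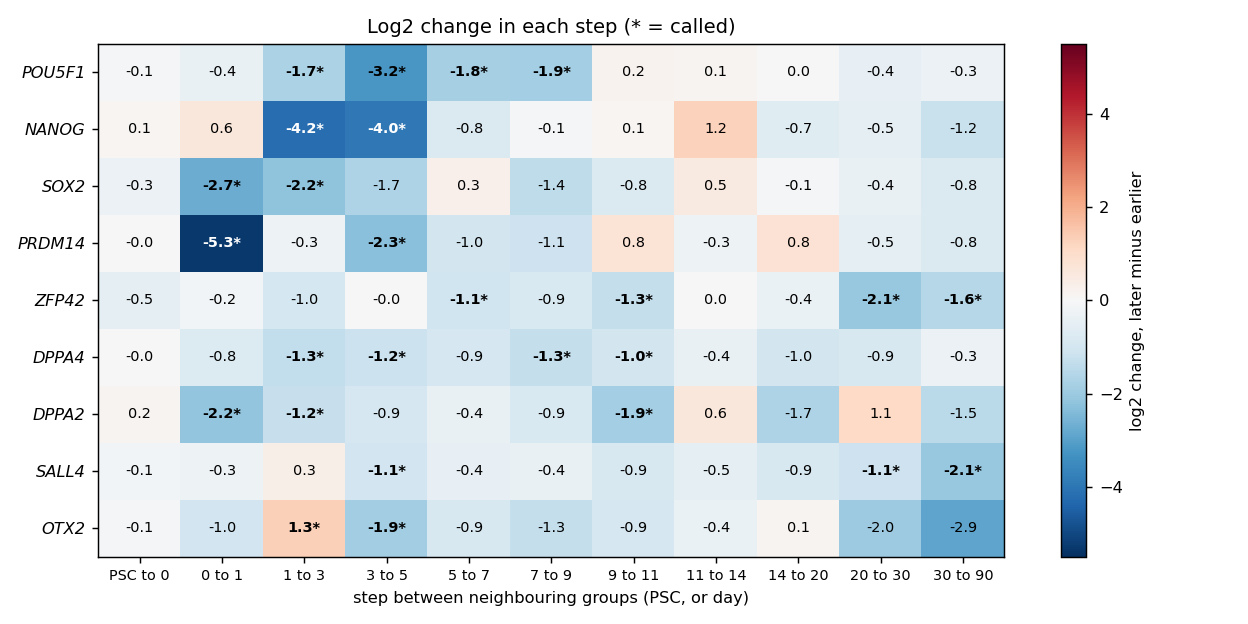
Log2 change of each gene between neighbouring groups in time (later minus earlier, from the edgeR model), with an asterisk on changes that were called. The darkest cell is PRDM14 from day 0 to day 1 at -5.3, and the only called rise is OTX2 from day 1 to day 3 at 1.3.

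From day 7 all 9 genes were called lower than at day 0 at every day sampled. Of all genes tested, 13.3% were called lower at day 7 and 14.6% at day 9. This share was 14.7% at day 11, 13.6% on day 14 and 14.5% on day 20, and it reached 16.5% on day 30 and 19.2% on day 90. The median log2 change of the 9 genes was -4.73 at day 7 and -5.59 at day 9. It was -7.47 on day 11 and -9.35 on day 90. Over all genes tested it stayed between 0.05 and 0.16 at these days.

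Between days 5 and 7 POU5F1 and ZFP42 were called lower (2 of 9 genes, beside 0.906% of all genes). ZFP42 reached 31.4, 36.1, 45.1, 34.8 and 36.3 CPM (log2 -1.11 ± 0.20, adjusted p = 1.4e-04). POU5F1 measured 5.57, 4.02, 3.77 and 3.34 CPM in 4 wells and 33.7 CPM in day 7 replicate 10. That well also stood apart for SOX2, at 14.5 CPM against 0.592 to 1.03 CPM in the others, and for OTX2, at 18.1 CPM against 7.21 to 9.37 CPM. In deposited TPM it was again the highest day 7 well for POU5F1 and SOX2 but not for OTX2. The OTX2 wells of day 7 ran from 2.02 to 3.30 TPM, with replicate 4 the highest. NANOG in it (0.465 CPM) and DPPA4 (42.7 CPM) were close to the highest of the other wells, at 0.369 and 40.6 CPM. PRDM14 was at 0.778 CPM there (19 counts) and at 0.0359 to 0.278 CPM in the others (1 to 7 counts). The 6 other pluripotent-cell markers summed to 339.9 CPM in this well, within the 308.3 to 353.5 CPM of the others. Of these 6, L1TD1 was higher there (42.7 CPM against 13.9 to 18.3 CPM) and PODXL lower (243.4 against 257.4 to 287.5 CPM). TFAP2C, a germ-cell and trophoblast factor, was at 9.01 against 1.15 to 2.87 CPM. The 5 germ-cell markers, TFAP2C among them, summed to 9.68 CPM in this well and to 1.43 to 3.41 CPM in the others. TFAP2C made up most of the sum in this well, and DAZL and DDX4 had no more than 3 counts in any day 7 well. Their part in its POU5F1, SOX2, OTX2 and PRDM14 levels was not tested. With all wells SOX2 differed by log2 0.27 ± 0.64 between days 5 and 7 (adjusted p = 0.91), and without replicate 10 it fell by 1.87 (adjusted p = 0.044).

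Between days 7 and 9 POU5F1 and DPPA4 were called lower, 2 of 9 genes beside 0.261% of all genes. DPPA4 fell from 34.9 to 42.7 CPM to 11.1 to 22.5 CPM (log2 -1.29 ± 0.28, adjusted p = 0.0057). The POU5F1 change of -1.86 ± 0.47 (adjusted p = 0.025) rested on day 7 replicate 10 and was -0.59 without it (adjusted p = 0.56), and leaving out day 9 replicate 2 (log2 -1.66), 3 (-1.72) or 4 (-1.81) also ended the call. Without day 9 replicate 4 OTX2 was called lower in this step (log2 -1.66, against -1.33 with all wells).

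Between days 9 and 11, ZFP42, DPPA4 and DPPA2 were called lower, 3 of 9 genes beside 1.24% of all genes. ZFP42 went from 14.5 to 26.3 CPM to 4.94 to 13.0 CPM (log2 -1.33 ± 0.20, adjusted p = 1.4e-04), and its call held without any single well. The wells of day 11 formed 2 sets for DPPA4, with 13.2 and 14.3 CPM in replicates 1 and 2 and 3.23 to 4.35 CPM in replicates 5, 6 and 7. Replicates 1 and 2 had RNA integrity numbers of 8.6 and 8.0 and 18014203 and 19060126 counts, and the other 3 had 9.2 to 9.5 and 23631168 to 31323325 counts. In replicates 1 and 2 the cycling marker MKI67 was at 80.9 and 77.8 CPM against 18.9 to 23.6 CPM, and the cardiac gene MYH6 at 4350 and 2844 CPM against at least 10450 CPM. Their part in the DPPA4 levels was not tested. DPPA4 (log2 -1.01 ± 0.28, adjusted p = 0.036) lost its call without any one of day 9 replicates 1, 2 and 3 and day 11 replicates 5, 6 and 7 (log2 -0.81 to -1.02). DPPA2 (log2 -1.88 ± 0.53, adjusted p = 0.039) kept its call without day 9 replicate 10 or day 11 replicate 5 and lost it without any other single well of the 2 days (log2 -1.62 to -2.01). Without both day 11 replicates 1 and 2, an alternative added after the data were seen, ZFP42 and DPPA4 were called in this step.

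After day 11 only ZFP42 and SALL4 passed the call between neighbouring days with all wells. Between days 11 and 14, 0 of 9 genes were called by edgeR (beside 0.697% of all genes in either direction), and between days 14 and 20 also 0 of 9 (beside 0.0479%). DESeq2 and limma also called 0 in both steps, and 2 genes had an unadjusted p under 0.05 in each, NANOG and SALL4 in the first and DPPA4 and SALL4 in the next. ZFP42 was at 4.94 to 13.0 CPM from day 11 to day 20 and fell between days 20 and 30 from 5.84 to 7.11 CPM to 0.855 to 2.13 CPM (log2 -2.08 ± 0.30, adjusted p = 8.8e-05). SALL4 measured 9.09, 12.6 and 32.4 CPM at day 20 and 9.00, 9.21 and 6.44 CPM at day 30 (log2 -1.15 ± 0.29, adjusted p = 0.020). These 2 genes of 9 were the ones called lower in that step, beside 1.26% of all genes, and the same 2 were called lower between days 30 and 90, beside 2.44%. At day 90 SALL4 measured 1.17, 3.69 and 1.12 CPM (log2 -2.09 ± 0.32 against day 30, adjusted p = 4.9e-05), or 0.351 to 1.16% of day 0, with the highest mean share among the 9 genes (0.624%). ZFP42 ended at 0.538, 0.696 and 0.280 CPM (log2 -1.56 ± 0.39 against day 30, adjusted p = 0.0085). The SALL4 call of days 20 to 30 was lost without day 20 replicate 3 (log2 -0.30) and without day 30 replicate 1 (-1.21) or 3 (-0.98), and the SALL4 fall of days 14 to 20 was called without day 20 replicate 3 (log2 -1.72). The ZFP42 call of days 30 to 90 was lost without day 30 replicate 3 (log2 -1.16) or day 90 replicate 5 (log2 -1.29). In fits of the 2 groups alone neither gene was called in these 2 steps, with adjusted p from 0.29 to 0.89. Other calls also changed with 1 well: NANOG rose from day 11 to day 14 without day 14 replicate 3 (log2 1.75), and OTX2 fell from day 20 to day 30 without day 20 replicate 1 (log2 -2.51) or day 30 replicate 10 (log2 -3.53).

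POU5F1 was still counted in every late well, from 25.8 to 109 counts from day 9 on, which is 1.06 to 5.47 CPM and 0.0738 to 0.381% of day 0. SOX2 ran from 0 to 2.60 CPM in these 22 wells. PRDM14 had at most 3 counts in 14 of them, and OTX2 was at or under 3 counts in all 3 wells of day 90, where it was at least 285-fold lower than at day 0. DPPA2 was at or under 3 counts in every well of days 20 and 90, at least 48.8-fold and 95.9-fold lower than at day 0. Late wells shared their lanes with earlier wells. Lanes 1, 3, 4 and 5 each held pluripotent or day 0 wells, in which these genes were high. On lane 2 the only well from before day 3 was day 1 replicate 2, with SOX2 at 29.2 CPM and PRDM14 at 3.08 CPM. The late POU5F1 level was a median 0.709% of the mean of the other libraries on its lane (0.434 to 2.51%), and for NANOG this share was 0.923% (0.345 to 6.19%). For SOX2 it was 1.08% (0 to 41.5%) and for PRDM14 0.634% (0 to 13.8%). The highest share of each of these genes was on lane 2. Over the 22 late wells the rank correlation (Spearman) of the level with that lane mean was 0.431 for POU5F1 and 0.331 for NANOG. It was 0.235 for SOX2 and 0.644 for PRDM14. The part of the other libraries of a lane in the late values was not tested. The late NANOG values above 1% of day 0 were in day 14 replicate 2 (1.81 CPM) and day 20 replicate 2 (1.44 CPM), the libraries with 8679308 and 6937136 counts, the lowest totals of the series.

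Put in order by the first sampled day on which every well was under 10% of the day 0 mean, PRDM14 came first (day 1) and SOX2 second (day 3). POU5F1, NANOG and DPPA2 followed at day 5 and DPPA4 at day 7. ZFP42 and OTX2 reached this level at day 11 and SALL4 at day 30. By the 50% mark the order differed: PRDM14, SOX2 and DPPA2 at day 1, POU5F1, NANOG and DPPA4 at day 3, OTX2 at day 5, and ZFP42 and SALL4 at day 7. At the 1% mark NANOG joined PRDM14 at day 5, ahead of POU5F1 and SOX2 at day 9, DPPA2 at day 11, DPPA4 at day 14 and ZFP42 and OTX2 at day 90. SALL4 did not reach it in every well by day 90. For DPPA2 the 1% mark lay near the counting floor, with 1 to 4 counts in its day 11 wells. Its highest well was above 1% again at days 14 (2.51%) and 30 (1.95%), and that of NANOG at days 14 (1.69%) and 20 (1.35%). The 1% order therefore gives the first day reached and not a level that was kept. POU5F1 and SOX2 passed the 1% mark at day 7 once day 7 replicate 10 was left out, in which they kept 2.35% and 4.96% (a check added after the data were seen). In deposited TPM, 5 of the 27 marks moved: NANOG reached 1% at day 7 (1.12% in its highest day 5 well) and SOX2 at day 11 (1.12% in its highest day 9 well), OTX2 reached 50% at day 7 and SALL4 at day 11, and SALL4 reached 1% at day 90. Measured against the pluripotent wells on LN-521 in place of day 0, 3 marks moved: ZFP42 was under 50% from day 3 and under 1% from day 30, and SALL4 was under 10% from day 20. With RLE scaling ZFP42 reached 50% at day 5 and DPPA4 reached 1% at day 20. NANOG started to fall after SOX2, with 154.5% ± 12.04 and 14.9% ± 4.35 of day 0 at day 1 (SD, n = 3 each). At day 5 the mean share of NANOG was the lower, at 0.544% ± 0.102 and 0.990% ± 0.560 (SD, n = 5 each), but the wells of the 2 genes overlapped. By mean NANOG was also lower at days 7 and 9 and was higher from day 11 to day 30 (0.33% and 0.26% at day 11, 0.88% and 0.42% at day 14). The wells of the 2 genes overlapped on each of these days. At day 7 the SOX2 mean (1.21%) rested on replicate 10 at 4.96%. The lowest SOX2 well of that day (0.203%) lay within the NANOG wells (0.196 to 0.435%), so the order at day 7 depends on replicate 10. DPPA4 and DPPA2, the paired chromatin proteins, did not fall in step: DPPA4 kept 55.7 to 63.0% at day 1, when DPPA2 kept 22.2 to 22.9%. The ratio of DPPA4 to DPPA2 in TPM was 25.5 to 30.6 at day 0 and 71.6 to 73.2 at day 1, and it was back to 20.7 to 49.4 at day 9. These orders are descriptions, and neighbours that share a sampled day were not separated.

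The ranking of the 9 genes within a library changed along the way. POU5F1 was the most abundant in TPM from the pluripotent wells to day 3, SALL4 by its mean from day 5 to day 30, and POU5F1 again by its mean at day 90. At day 90 POU5F1 was at 0.543 ± 0.457 TPM and DPPA4 at 0.280 ± 0.164 TPM (SD, n = 3 each). The ratio of DPPA4 to POU5F1 ran from 0.333 to 1.23 there, so the 2 genes were not ranked alike in every well. The ratio of SALL4 to POU5F1 in TPM was 0.0897 to 0.0992 at day 0 and 0.104 to 0.108 at day 1. By day 3 it was 0.374 to 0.462, and by day 5 it was 1.55 to 2.53. NANOG moved from 34.8 ± 3.52 TPM at day 0 to 59.1 ± 3.04 TPM at day 1 (SD, n = 3 each), where it and SALL4 (59.3 ± 1.06 TPM) differed by less than their spread, and was at 4.10 ± 1.67 TPM at day 3. Protein-coding genes held 15.4 to 41.9% of the TPM of a library. This share was 29.7 to 31.2% at day 0 and 33.5 to 37.0% at day 1, so TPM levels of different days are not on the same scale. In TMM-scaled CPM the mean of NANOG at day 1 was 154.5% of day 0. Rescaling to protein-coding genes divides every gene of a library by the same number. The rank order of the 9 genes was therefore bound to stay as it was in all 44 libraries, which is no check of the ranking.

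**Figure D4:**
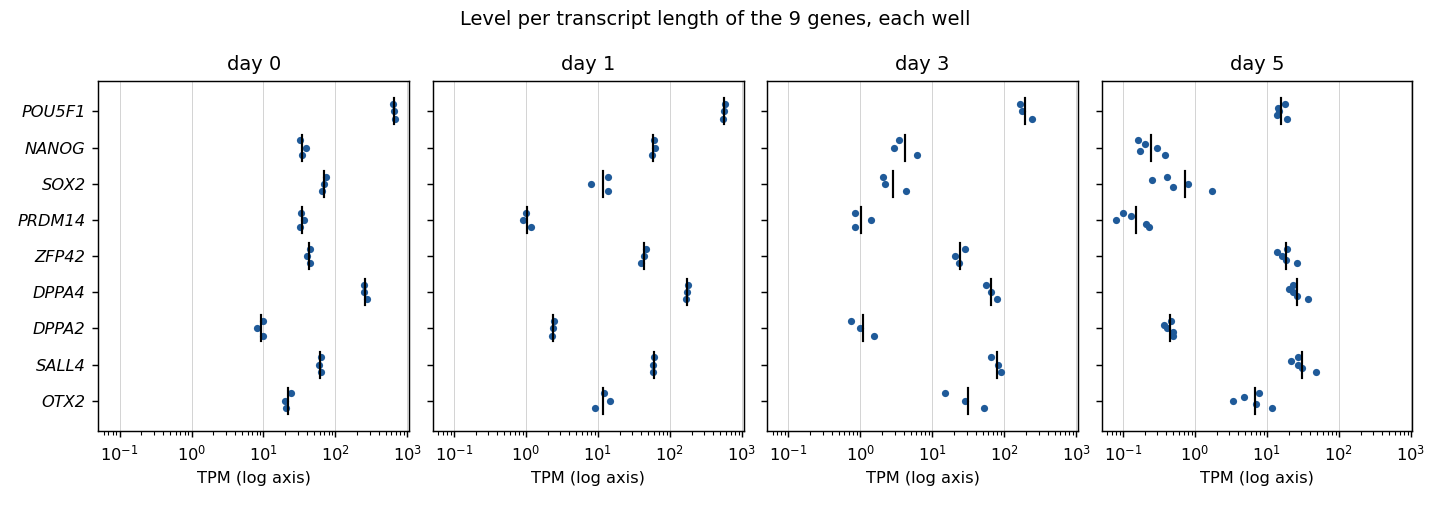
TPM (log axis) of the 9 genes in each well of days 0, 1, 3 and 5. Points are wells and black bars are group means. POU5F1 leads from day 0 to day 3, and at day 5 SALL4 at 30.98 TPM and DPPA4 at 26.2 TPM lie above POU5F1 at 15.8 TPM.

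For each gene the 3 most similar profiles were taken as those with the highest Pearson correlation over the 12 group means of log2(CPM + 0.5), among 13268 protein-coding genes. The groups share the time course, so high values are common, and they are given as a description. The correlation compares the shape of 2 profiles and not the size of their changes. SOX2 was most like SOX3 (r = 0.993), a SOX gene of the same subgroup, which measured 11.98 CPM at day 0, 4.47 at day 1 and 2.12 on day 3. PRDM14 was most like TERF1 (r = 0.996), a telomere-repeat binding protein, at 765 CPM on day 0, 106 on day 1 and 64.2 on day 3. DPPA2 was most like ZBTB3 (r = 0.992) and GRPR (r = 0.990), a receptor gene with 103 CPM at day 0 and 13.3 at day 1. DPPA4 was most like PLCB3 (r = 0.996), and POU5F1 most like NASP (r = 0.991), a histone chaperone that stood at 480.4 CPM at day 0 and 409.6 CPM at day 3. NANOG was most like NANOGP8 (r = 0.992), which is a copy of NANOG. ZFP42 was most like TCF3 (r = 0.991), and OTX2 most like CNOT1 (r = 0.993), but both of these fell far less. From day 0 to day 9 TCF3 went from 262.6 to 138.9 CPM and ZFP42 from 178.2 to 20.3 CPM. CNOT1 went from 443.0 to 262.1 CPM and OTX2 from 59.5 to 4.04 CPM. Among the 9 genes themselves the correlations ran from 0.620 for PRDM14 with SALL4 to 0.993 for SOX2 with DPPA2.

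Of 20 other genes of the core and primed network, 9 were called lower and 2 higher at day 1 than at day 0, beside 9.66% and 3.86% of all genes tested, with a median log2 change of -1.01. FOXD3 (log2 -4.70 ± 1.09) and UTF1 (-3.58 ± 0.99), both nuclear factors of undifferentiated cells, fell, UTF1 from only 3.38 CPM. NODAL, a signal of the TGF-beta family that marks the forming streak, rose from 5.98 to 308 CPM (log2 5.68 ± 0.50), and its nuclear partner FOXH1 from 60.6 to 144 CPM (1.25 ± 0.40). At day 3 the counts were 10 lower and 2 higher (beside 8.76% and 7.81% of all genes) and at day 5 14 lower and 0 higher (beside 12.2% and 12.5%). They were 19 lower and 0 higher at day 9 (beside 14.6% and 17.1%) and on day 90 (beside 19.2% and 20.8%). LEFTY1 (-6.31 ± 0.70) and TDGF1 (-6.12 ± 0.56), both parts of the NODAL pathway, were among those that fell at day 5. LEFTY2 was the gene not called at day 90 (log2 0.56 ± 0.47).

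Of 12 factors linked to the naive state, an earlier form of pluripotency, 3 were called lower and 4 higher at day 1, 4 and 3 at day 5, and 3 and 5 at day 9. All genes tested were called lower and higher in 9.66% and 3.86% at day 1, 12.2% and 12.5% at day 5, and 14.6% and 17.1% at day 9, the shares against which these counts are to be read. GBX2 rose from 0.871 to 56.6 CPM at day 1 (log2 6.01 ± 0.69) and FGF4 from 7.35 to 54.8 CPM (2.90 ± 0.62). DPPA3 fell from 2.59 to 0.298 CPM (-3.09 ± 0.75), and DPPA5 from 1.66 to 0.131 CPM (-3.62 ± 0.81). Among those higher at day 9 were TBX3, also a heart and limb factor, at 114.5 CPM (6.83 ± 0.39), and KLF2, also an endothelial factor, at 5.97 CPM (5.54 ± 0.55). Both were at most 1.00 CPM at day 0.

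Of 12 relatives of the 9 genes from the SOX, OTX, SALL, POU and PRDM families, 4 were called lower and 1 higher at day 1 (beside 9.66% and 3.86% of all genes), and 5 lower and 2 higher at day 5 (beside 12.2% and 12.5%). PRDM16 (-2.66 ± 0.53) and POU3F1 (-2.12 ± 0.58) fell at day 1, when SALL3 rose from 67.2 to 157 CPM (1.22 ± 0.29). At day 5 PRDM1 (3.54 ± 0.56) and SALL1 (1.41 ± 0.28) were higher than at day 0, while SOX3 (-4.04 ± 0.65) and POU3F1 (-2.84 ± 0.50) were lower. At day 90 the counts were 7 lower and 1 higher (beside 19.2% and 20.8%), the latter being PRDM16 at 28.3 CPM (4.27 ± 0.46).

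Of 8 surface and epithelial genes of pluripotent cells, 2 were called lower at day 1 (PODXL at log2 -1.60 ± 0.39 and CD24 at -1.43 ± 0.33). There were 3 on day 3, 4 on day 5, 6 on day 9 and 8 on day 90, and 0 were called higher on any of these days. The share of all genes called lower was 9.66% on day 1, 8.76% on day 3, 12.2% on day 5, 14.6% on day 9 and 19.2% on day 90. CDH1, the epithelial cadherin, was at 324 CPM at both day 0 and day 1, and at 95.2 CPM at day 5 (log2 -1.77 ± 0.41). Over all genes tested the median log2 change at days 1, 3, 5, 9 and 90 was between -0.03 and 0.08. The 4 lists were drawn up with earlier results of these data known and their counts are descriptions. At day 0 against the pluripotent wells 2 of the 52 list genes were called, beside 2.91% of all genes in either direction, both higher: GBX2 (log2 3.77 ± 0.88) and PRDM1 (2.84 ± 0.73).

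**Figure D5:**
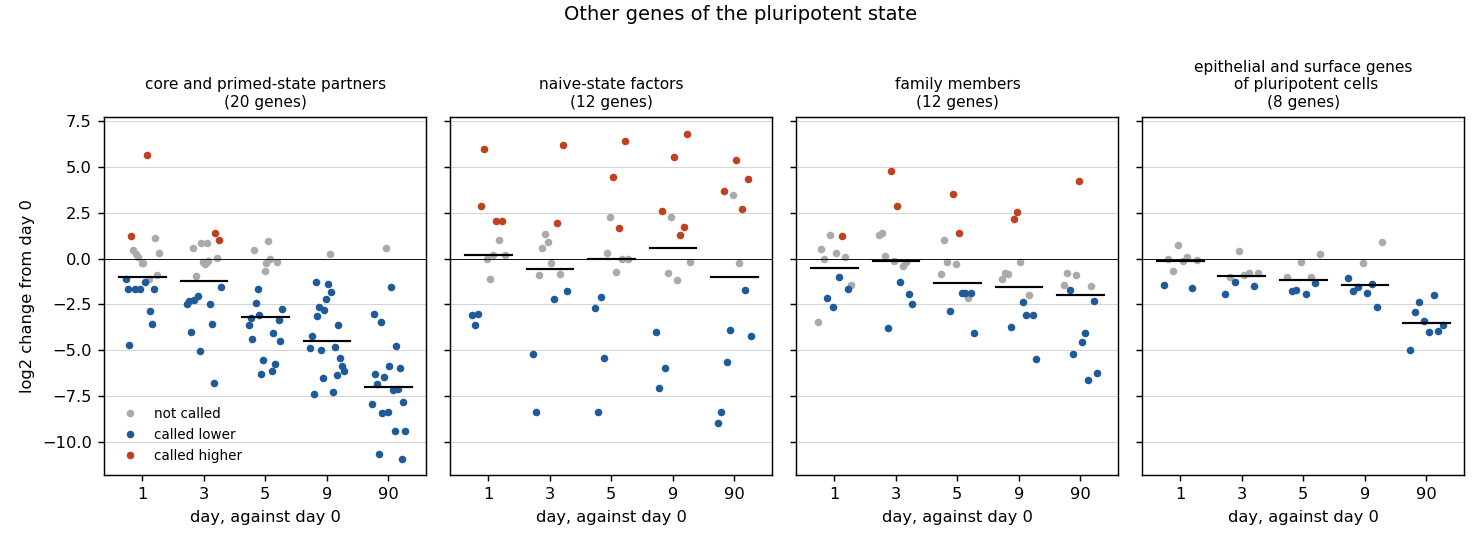
Log2 change from day 0 at days 1, 3, 5, 9 and 90 for 4 lists of other pluripotency genes. Points are genes, coloured by call, and bars are list medians. The core and primed-state partners go from a median of -1.01 at day 1 to -7.00 at day 90, while the naive-state factors hold called genes on both sides at every day.

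Copies and overlapping genes can share reads with some of the 9. NANOGP8, a processed copy of NANOG, held 11.45 CPM at day 0 (10.7% of the NANOG counts), 15.8 CPM at day 1 and 0.959 CPM at day 3, when NANOG itself averaged 107, 165 and 9.01 CPM. NANOGP1, another copy, held 2.68 CPM at day 0, and other NANOG copies at most 0.625 CPM in any well. POU5F1 has 7 copies by name, none above 2.27 CPM in any well. The copy POU5F1B averaged 1.05 CPM at day 9 and 1.18 CPM at day 11, when POU5F1 averaged 2.79 and 3.17 CPM. TCF19 overlaps POU5F1 on the opposite strand and held 23.7 CPM at day 0 (1.65% of the POU5F1 counts). It averaged 5.28, 10.2 and 22.3 CPM at days 9, 30 and 90, above POU5F1 at 2.79, 2.72 and 2.10 CPM. The part of POU5F1B and TCF19 in the late POU5F1 level was not tested. SOX2 lies inside SOX2-OT, which runs on the same strand and held 3.96 CPM at day 0 and 1.53 CPM at day 1. The sources used here do not say whether counting used the strand, so reads of such pairs may have been assigned to either gene.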

How the data were processed

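RNA of 44 wells was made into stranded total-RNA libraries (TruSeq), read as 150 bp pairs with a planned 10 libraries to a lane, per the labels' protocols, and the 44 lay 8 to 10 to a lane on 5 lanes, per the deposited library details. Tools named are cutadapt, STAR 2.5.2b and RSEM 1.2.31 with the genome build hg38, per the submitters' processing notes. The annotation used for counting and the use of strand are not given in the sources used here. The authors deposited a table of expected counts per gene, a table of TPM, and a table of library details that holds the RNA integrity number, a quality score from 7.4 to 10 in these wells. Of the deposited count values 93.84% were whole, and the others were rounded. GENCODE release 29 gave symbols for 56769 of the 60499 identifiers.

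The main test was edgeR 4.0.16 (R 4.3.3) with its quasi-likelihood fit over all 12 groups, TMM scaling and its default filter on low counts, which kept 22955 genes. P-values were adjusted by Benjamini-Hochberg over these genes, and errors beside log2 changes are standard errors. Intervals are the change ± 1.96 standard errors. Alternatives were another scaling (RLE), no filter or a stricter one, a replicate block, the lane as a covariate, fits of the compared groups alone, DESeq2 1.42.0, limma 3.58.1 on log2(TPM + 1), and each well left out. Shares of the day 0 level were also computed from TPM, from RLE-scaled CPM and against the pluripotent wells. Counting floors cover counting error only. On simulated counts for 22955 genes, 200 of them changed, day 1 against day 0 recovered 68.6% of 102 genes at a log2 change of 2 and 78.6% of 98 at 3, and day 9 against day 0 recovered 72.4% of 98 and 80.4% of 102. In each, 2 unchanged genes were called. The simulation gave every group except the compared later day the day 0 mean of each gene, whereas the measured groups differed widely. These shares therefore describe that simpler setting and not the fit of the data. No 2 replicates differed by as little as sampling noise (lowest chi-square per degree of freedom 5.38).

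The 9 genes and all lists were chosen with earlier results of these data known. All 9 genes are described. Genes of the other lists are named where they were called and had the largest changes in either direction, and LEFTY2, CDH1 and the single markers given for wells that stood apart were named after their values were seen. Likeness to each of the 9 genes was ranked among protein-coding genes with at least 5 CPM in a group. Promoter sequences are from the RefSeq table for GRCh38.p14, and only the bases upstream of the start are printed. The profile most like SALL4 is not reported here.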

Additional observations from a re-analysis of the deposited data

Results flagged for a closer look

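In 36 groups of 5 wells (the 9 genes at days 5, 7, 9 and 11), 3 had 1 well far from the others by Dixon's criterion, and chance alone marks about 1 in 20 groups. All 3 were day 7 replicate 10. POU5F1 was 33.7 CPM there and 3.34 to 5.57 CPM in the other 4 wells. SOX2 was 14.5 CPM against 0.592 to 1.03 CPM. OTX2 was 18.1 CPM against 7.21 to 9.37 CPM. In deposited TPM replicate 4 and not replicate 10 was the highest OTX2 well of day 7, so this flag depends on the measure. The cause was not tested.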

How the results depend on the processing

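Of 220 results compared over these alternatives, 71 were counts of called genes or answers to a comparison. The number of the 9 genes lower than at day 0 stayed 9 from day 7 on in every well left out, and ran from 2 to 3 at day 1, was 7 at day 3 and ran from 8 to 9 at day 5. The step counts moved more. Between days 7 and 5 the count of 2 became 4 with the replicate block, 4 with limma and 1 with DESeq2, which gave POU5F1 no adjusted p. Between days 9 and 7 the 2 became 1 with limma. Between days 11 and 9 the 3 became 1 without the filter, 1 with the replicate block, 1 in the fit of the compared groups alone and 0 with limma. Between days 14 and 11 the 0 became 1 (NANOG, higher) when day 11 replicates 1 and 2 were left out, an alternative chosen after seeing the data. Between days 30 and 20 the 2 became 0 with limma and in the fit of the compared groups alone, and between days 90 and 30 the 2 became 1 and 0. The causes were not tested.

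With single wells left out, the number called ran from 0 to 0 for day 0 against the pluripotent wells, 2 to 3 for day 1 against day 0, 2 to 5 for day 3 against day 1, 5 to 6 for day 5 against day 3, 2 to 3 for day 7 against day 5 and 1 to 2 for day 9 against day 7. It ran from 1 to 3 for day 11 against day 9, 0 to 1 for day 14 against day 11, 0 to 1 for day 20 against day 14, 1 to 3 for day 30 against day 20 and 1 to 2 for day 90 against day 30. The ZFP42 change at day 1 was log2 0.02 with limma, against -0.17, and the OTX2 change from day 0 to day 3 ran from -0.18 to 0.60 with single wells left out, against 0.25. Of 36 shares of the day 0 level (9 genes at days 1, 3, 5 and 9), 14 moved by more than the spread between wells in deposited TPM and 9 against the pluripotent wells. The number of genes under 10% in every day 5 well was 5 in both, as in the reported values. POU5F1 at day 0 was 2135 TPM when rescaled to protein-coding genes. With RLE scaling 1 of the core and primed-state partners was higher at day 3, against 2. The labels' replicate numbers were not taken to pair the wells, since in no comparison with 3 or more pairs were all correlations of same-numbered wells over 0.1 (the range was -0.077 to 0.454). Comparisons with 2 pairs were not part of that rule. Among these, day 20 against day 14 had 0.553 and 0.611, day 14 against day 11 had 0.102 and 0.342, and the others ran from -0.101 to 0.367. The main fit does not model a link between such wells. Besides the changes above, the replicate block moved no count of the 9 genes by over 1.5 times, giving 9 lower at day 5 (against 8) and 7 between days 5 and 3 (against 6). Libraries of 6937136 to 11715812 counts limit the late values, where 3 counts are 0.256 to 0.432 CPM.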
